A study of Mus musculus with 13 samples.

Results

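The genes described here build and crosslink the elastic fibre of the arterial wall. They are the 10 genes of a named list, Eln, Fbn1, Fbn2, Fbln5, Efemp2, Emilin1, Mfap4, Lox, Loxl1 and Loxl2, taken by symbol from a table of 56953 genes. Of the 10, 9 passed a low-count filter that kept 18055 genes, and Fbn2 did not. RNA of whole aorta was sequenced from ApoE-/- mice, which lack apolipoprotein E and develop atherosclerosis. All mice were fed a Western diet for 16 weeks from an age of 6 weeks, so no library is from a mouse on normal chow or with the Apoe gene intact. The groups were auranofin at 3 mg/kg/day (3 libraries), atorvastatin at 10 mg/kg/day (3 libraries), auranofin at 3 mg/kg/day with atorvastatin at 10 mg/kg/day (called the combination, 2 libraries), and the diet with no drug (WD, 5 libraries). Auranofin, a gold-containing drug for arthritis, blocks thioredoxin reductase. Atorvastatin blocks cholesterol synthesis. Both were given in the diet. The question behind the series was the effect of auranofin on atherosclerosis.

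Elastin is secreted as a soluble monomer, tropoelastin, that is laid onto a scaffold of fibrillin microfibrils with the help of fibulins and other adaptor proteins. Copper-dependent lysyl oxidases then oxidize lysine side chains, and the crosslinks that form make the fibre insoluble and elastic. In the aorta these fibres form the lamellae between layers of smooth muscle cells, and breaks in the lamellae are a known feature of atherosclerosis and aneurysm.

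No elastic fibre gene passed the test between any 2 groups after adjustment over all genes, which with 2 to 5 libraries a group does not show that the groups were alike. Expression is given as CPM, the counts of a gene scaled to a fixed library size, with TMM factors to correct for the makeup of each library. Each test was edgeR's quasi-likelihood test with Benjamini-Hochberg adjustment over 18055 genes and a threshold of 0.05, at which 0% of genes were called in each of the 10 comparisons. All 9 measured members were fitted lower with auranofin than in WD, with a median log2 fold change of -0.44 against -0.04 over all genes. With atorvastatin 6 of 9 were fitted higher than in WD. Efemp2, Mfap4 and Loxl1 varied closely together over the libraries, and less closely with the other 6. These 2 sets were read off the same data, and genes outside the list went with Loxl1 at r up to 0.98. The set of 3 had the shortest summed exon lengths of the 9.

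Depth ran from 19703683 to 26079566 counts over the 13 libraries. Mitochondrial genes took 9.36% to 38.8% of the counts, highest in auranofin 2, WD 2 (26.9%) and WD 5 (24.2%). The TMM factor was lowest in auranofin 2 (0.629), WD 2 (0.639) and WD 5 (0.801), and 0.999 to 1.23 in the other libraries. Of the 9 contractile smooth muscle markers all passed the low-count filter. Myh11, the smooth muscle myosin heavy chain, ran from 745 CPM in auranofin 2 to 5549 CPM in atorvastatin 1. Their levels differed widely, with Acta2 at 4741 to 22512 CPM and Tagln at only 14.6 to 66.1 CPM. The labels name neither a batch nor the mouse behind each library, so the p-values measure only the spread between these samples. In whole tissue, fewer cells of a type and less RNA per cell cannot be told apart.

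The structural proteins come first. Eln (ENSMUSG00000029675) encodes elastin itself. It was among the most abundant transcripts of the aorta, ranked 19 in WD 1 and 147 in WD 2 by CPM among the genes tested, with ranks between these in the other 11 libraries. Eln stood at 1333, 1381 and 2114 CPM in auranofin 1, 2 and 3, at 2780.1, 2655 and 2835 CPM in atorvastatin 1, 2 and 3, and at 2130.2 and 1997 CPM in combination 1 and 2, against 3854, 887, 2657, 2969 and 1955 CPM in WD 1 to WD 5. The WD aortas spanned the values of each drug group, from the lowest of all libraries in WD 2 to the highest in WD 1. The 3 auranofin libraries all lay below the 3 atorvastatin libraries. Mean Eln was 1609 ± 438 CPM with auranofin and 2464 ± 1115 CPM in WD (SD, n = 3 and 5), a log2 fold change of -0.61 (SE 0.40; edgeR adjusted p 0.674).

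Fbn1 (ENSMUSG00000027204) encodes fibrillin-1, the main protein of the microfibril and the gene mutated in Marfan syndrome. It was at 183, 110.1 and 258 CPM with auranofin, 354, 283 and 219 CPM with atorvastatin, and 227 and 226 CPM with the combination, against 254, 134, 232, 249.6 and 159 CPM in WD. Each drug group overlapped WD, and 2 atorvastatin libraries were above all 5 WD libraries. The log2 fold change against WD was -0.16 (SE 0.30) for auranofin, 0.47 (SE 0.30) for atorvastatin and 0.14 (SE 0.35) for the combination. Fbn2 encodes fibrillin-2, a microfibril protein mainly of the embryo. It had 15 counts over all 13 libraries and at most 5 in one of them, with 0 counts in 6 libraries, so no fold change is given.

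Fbln5 (ENSMUSG00000021186) encodes fibulin-5, which carries elastin to the microfibril and binds integrins of the cell surface. It was at 326, 407 and 643 CPM with auranofin, 660.5, 566 and 478 CPM with atorvastatin, and 718 and 436 CPM with the combination, against 681, 421, 542, 569.8 and 540.1 CPM in WD. Over all libraries it varied by 2.20 times from lowest to highest, the narrowest range of the 9 members. Efemp2 (ENSMUSG00000024909) encodes fibulin-4, which binds lysyl oxidase and brings it to elastin. It was at 63.3, 44.7 and 84.7 CPM with auranofin, 78.3, 74.5 and 89.7 CPM with atorvastatin, and 109 and 69.6 CPM with the combination, against 102, 188, 89.3, 67.3 and 160.0 CPM in WD. Its high values in WD came from WD 2 and WD 5, and WD 4 lay within the auranofin range. The log2 fold change of auranofin against WD was -0.92 (SE 0.34; edgeR adjusted p 0.671) for Efemp2 and -0.26 (SE 0.28; edgeR adjusted p 0.769) for Fbln5.

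The sequences just before the starts of these 2 fibulin genes are shown as an example from each of the 2 sets of members. They were the members whose window lay outside the gene model. Each is 250 bases upstream of the RefSeq start on build GRCm38.p6, on the strand of the gene. Fbln5 is at chr12:101819120-101819369 on the minus strand and Efemp2 at chr19:5473696-5473945 on the plus strand. Capitals mark the GC box, GGGCGG or its reverse complement CCGCCC, a sequence that SP1-type factors bind.
Fbln5: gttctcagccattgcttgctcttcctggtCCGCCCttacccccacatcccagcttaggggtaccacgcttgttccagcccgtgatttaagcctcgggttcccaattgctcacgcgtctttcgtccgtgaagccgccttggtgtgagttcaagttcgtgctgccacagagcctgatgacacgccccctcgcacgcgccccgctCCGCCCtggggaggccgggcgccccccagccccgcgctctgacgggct
Efemp2: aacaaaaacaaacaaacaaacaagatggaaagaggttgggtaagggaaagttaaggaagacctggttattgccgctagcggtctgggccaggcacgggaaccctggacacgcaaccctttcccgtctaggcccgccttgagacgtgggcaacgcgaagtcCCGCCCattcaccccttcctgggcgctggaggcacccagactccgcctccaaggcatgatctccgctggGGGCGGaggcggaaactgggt
Each window held 2 GC boxes, and 32.7% of 32851 RefSeq windows of this length held at least 1. Neither held a CArG box, the serum response element of smooth muscle genes (1.47% of windows), nor CAGACA or its reverse complement, an element that SMAD proteins can bind (17.1% of windows). The G and C content was 65.2% for Fbln5 and 59.2% for Efemp2. These letters are a description and show no binding.

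Emilin1 (ENSMUSG00000029163) encodes a glycoprotein at the border of elastin and microfibrils. It was at 91.7, 72.3 and 157 CPM with auranofin, 166, 176 and 146 CPM with atorvastatin, and 205 and 131 CPM with the combination, against 183, 75.1, 143, 135 and 149.9 CPM in WD. Auranofin 3 lay well within WD, while auranofin 1 and 2 were low together with WD 2. Mfap4 (ENSMUSG00000042436) encodes a microfibril-associated protein that binds tropoelastin and fibrillin. It was at 386, 242 and 547 CPM with auranofin, 421, 397 and 432 CPM with atorvastatin, and 615 and 311 CPM with the combination, against 585, 744, 491, 512 and 805 CPM in WD. The 3 atorvastatin libraries were all below the 5 WD libraries, which was so for 2.87% of genes. The log2 fold change of Mfap4 with atorvastatin was -0.59 (SE 0.31; edgeR adjusted p 0.352).

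Among the enzymes, Lox (ENSMUSG00000024529) encodes lysyl oxidase, which crosslinks elastin and collagen. It was at 167, 168 and 210.3 CPM with auranofin, 344, 351 and 230.4 CPM with atorvastatin, and 160.1 and 263 CPM with the combination, against 349, 131, 191, 299 and 109 CPM in WD. The auranofin libraries lay inside the WD range and below all 3 atorvastatin libraries. Loxl1 (ENSMUSG00000032334) encodes a relative of lysyl oxidase that binds fibulin-5 and maintains elastic fibres in the adult. It was at 144, 109 and 233 CPM with auranofin, 244, 213 and 250.2 CPM with atorvastatin, and 297 and 171 CPM with the combination, against 259, 329.7, 269, 203 and 370.4 CPM in WD. Auranofin 1 and 2 were the lowest 2 of all 13 libraries, and auranofin 3 was above WD 4. The log2 fold change of Loxl1 with auranofin was -0.82 (SE 0.30; edgeR adjusted p 0.671).

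Loxl2 (ENSMUSG00000034205) encodes a lysyl oxidase relative known for crosslinking type IV collagen of basement membranes. It was at 36.5, 22.0 and 49.3 CPM with auranofin, 71.1, 66.2 and 50.8 CPM with atorvastatin, and 46.7 and 51.4 CPM with the combination, against 58.2, 50.1, 46.7, 59.1 and 30.5 CPM in WD. Each auranofin library was below each atorvastatin library. Per kilobase of exon, the members ranked Eln (median 263 CPM per kb over 13 libraries), Mfap4 (256), Fbln5 (78.4), Loxl1 (74.1), Lox (44.0), Emilin1 (29.7), Efemp2 (22.4), Fbn1 (18.7) and Loxl2 (9.27). Eln was above Mfap4 in 8 of 13 libraries and Fbln5 above Loxl1 in 9 of 13, so neighbours in this order changed places within the spread of the libraries, whereas Mfap4 was above Fbln5 and Fbn1 above Loxl2 in all 13.

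**Figure D1:**
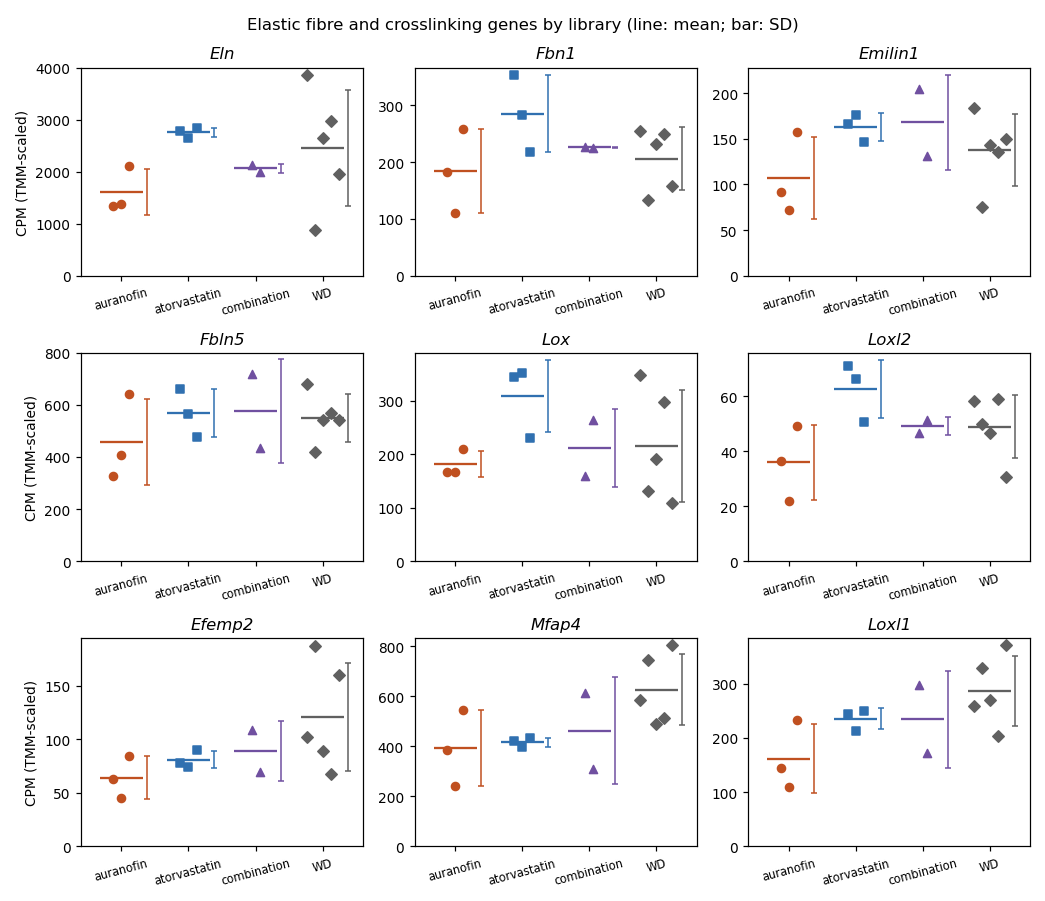
CPM of the 9 measured elastic fibre and crosslinking genes (vertical axis, from 0) in each library of the auranofin, atorvastatin, combination and WD groups; points are libraries, lines are group means and bars are SDs. The WD aortas spread widely, with Eln between 887 and 3854 CPM, and WD 2 and WD 5 hold the high values of Efemp2, Mfap4 and Loxl1.

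Auranofin against WD asked what the drug given alone did to these genes. All 9 members were fitted lower, from -0.16 (Fbn1) to -0.92 (Efemp2), where 53.6% of all genes were fitted lower. None passed, and at an unadjusted p under 0.05 edgeR counted 2 of 9 (Efemp2 and Loxl1), where 3.79% of genes were lower at that level. No member had auranofin and WD values that did not overlap, a pattern that 1.32% of genes showed in the lower direction. The 3 genes with the largest fitted differences, Efemp2 (-0.92), Loxl1 (-0.82) and Mfap4 (-0.68, SE 0.31), were those high in WD 2 and WD 5. With auranofin 2, WD 2 and WD 5 left out together, a choice made after seeing the data, their log2 fold changes were -0.20, -0.35 and -0.16, while that of Eln was -0.86 (SE 0.26; edgeR adjusted p 0.999), and 0 of 17749 genes tested passed (248 at an unadjusted p under 0.05).

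Adding the contractile smooth muscle score, the mean log2 CPM of 9 markers, as a covariate brought the auranofin value of Eln to -0.45 and that of Fbn1 to 0.04. The score was 8.82, 6.97 and 8.81 in auranofin 1, 2 and 3, and 8.22 to 9.22 in WD, so auranofin 2 was below every WD library. Auranofin 2 held the lowest value of all libraries for 6 of the 9 members, and the part of smooth muscle content in this was not tested. In the same library the scores of several other cell types were the highest of all. They were 3.72 for B cells (-0.83 to 1.58 in the others) and 1.48 for T cells (at most 0.15). Endothelium was at 7.65 (at most 6.75), brown adipocytes at 7.23 (at most 6.91) and adventitial fibroblasts at 8.47 (at most 8.35).

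Several marker lists of other cell types lay to one side in auranofin against WD, with no marker passing (smallest edgeR adjusted p 0.671). Brown adipocyte markers were fitted higher in 5 of 5 (median log2 fold change 1.75), with scores of 5.29 to 7.23 with auranofin and 3.32 to 5.88 in WD. Endothelial markers were fitted higher in 5 of 5 (median 0.73), B cell markers in 3 of 3 (median 2.59) and T cell markers in 3 of 3 (median 1.45). The B cell score was -0.12, 3.72 and 1.00 in auranofin 1, 2 and 3, and -0.83 to 1.16 in WD. Striated muscle markers were fitted lower in 6 of 6 (median -3.28), with scores of -0.03 to 1.10 with auranofin. In WD these scores were high in WD 1 (5.07) and WD 4 (5.60), and 0.09, 1.47 and 1.00 in WD 2, WD 3 and WD 5. Cartilage-like markers were fitted lower in 5 of 5 (median -0.59) and contractile smooth muscle markers in 8 of 9 (median -0.62). Macrophage markers were lower in 5 of 6 (median -0.17) and modulated smooth muscle markers in 4 of 5 (median -0.27). Adipocyte markers were higher in 4 of 5 (median 0.86), and adventitial fibroblast markers went both ways. The part of these in the members' values was not tested. Single libraries also carried weight: without auranofin 2 the log2 fold change was 0.10 for Fbn1, -0.14 for Emilin1, -0.19 for Loxl2 and -0.43 for Mfap4, without auranofin 1 it was -0.070 for Fbln5, and without WD 1 it was -0.015 for Lox and -0.41 for Eln.

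Atorvastatin against WD asked the same of the statin. Lox (log2 fold change 0.52, SE 0.36), Fbn1 (0.47, SE 0.30), Loxl2 (0.36, SE 0.26), Emilin1 (0.25, SE 0.30), Eln (0.16, SE 0.39) and Fbln5 (0.04, SE 0.28) were fitted higher, as were 49.2% of all genes. Mfap4 (-0.59), Efemp2 (-0.59, SE 0.33) and Loxl1 (-0.28, SE 0.29) were fitted lower. None passed, with a smallest edgeR adjusted p of 0.352, and none had an unadjusted p under 0.05, where 14.7% of all genes did. The members fitted higher were the 6 of longer exon length and those fitted lower were the 3 shortest. The length trend of each library, described below, was added as a covariate after seeing the data. It ran from 0.12 to 0.48 with atorvastatin and from -0.48 to 0.25 in WD, so it was partly tied to the group. With it Lox was at -0.04, Fbn1 at -0.11, Loxl2 at -0.04, Emilin1 at -0.06, Eln at -0.26 (SE 0.40) and Fbln5 at -0.11. Mfap4 was then at -0.37, Efemp2 at -0.06 and Loxl1 at -0.10. The part of gene length in these differences was not tested.

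The combination against WD, with 2 libraries, gave 4 members fitted higher and 5 lower, where 51% of genes were fitted lower. The median log2 fold change of the members was -0.03. Values ran from -0.44 for Efemp2 (SE 0.38) and Mfap4 (SE 0.36) to 0.29 for Emilin1 (SE 0.35). Eln was at -0.26 (SE 0.45), Loxl1 at -0.29 (SE 0.33), Lox at -0.03 (SE 0.42), Fbln5 at 0.07 (SE 0.32) and Loxl2 at 0.00 (SE 0.30). The 2 libraries lay far apart for most members, as for Mfap4, with 615 and 311 CPM, and Fbln5, with 718 and 436 CPM, and close together for Eln, Fbn1 and Loxl2. No member passed (smallest edgeR adjusted p 0.997), and 0 had an unadjusted p under 0.05, where 1.47% of genes did.

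Auranofin against atorvastatin compared the 2 single drugs. All 9 members were fitted lower with auranofin, with a median log2 fold change of -0.61, and 49.9% of all genes were fitted lower. None passed, and 1 of 9, Loxl2, had an unadjusted p under 0.05 in edgeR, where 2.33% of genes were lower at that level. Loxl2 was at -0.80 (SE 0.30; edgeR adjusted p 0.826), Eln at -0.78 (SE 0.44), Lox at -0.76 (SE 0.41), Fbn1 at -0.63 (SE 0.34), Emilin1 at -0.61 (SE 0.34), Loxl1 at -0.54 (SE 0.32), Efemp2 at -0.33 (SE 0.37), Fbln5 at -0.31 (SE 0.31) and Mfap4 at -0.09 (SE 0.34). For Eln, Lox and Loxl2 each auranofin library was below each atorvastatin library, which was so for 7.63% of genes. These comparisons share libraries with those against WD and are not separate evidence.

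**Figure D2:**
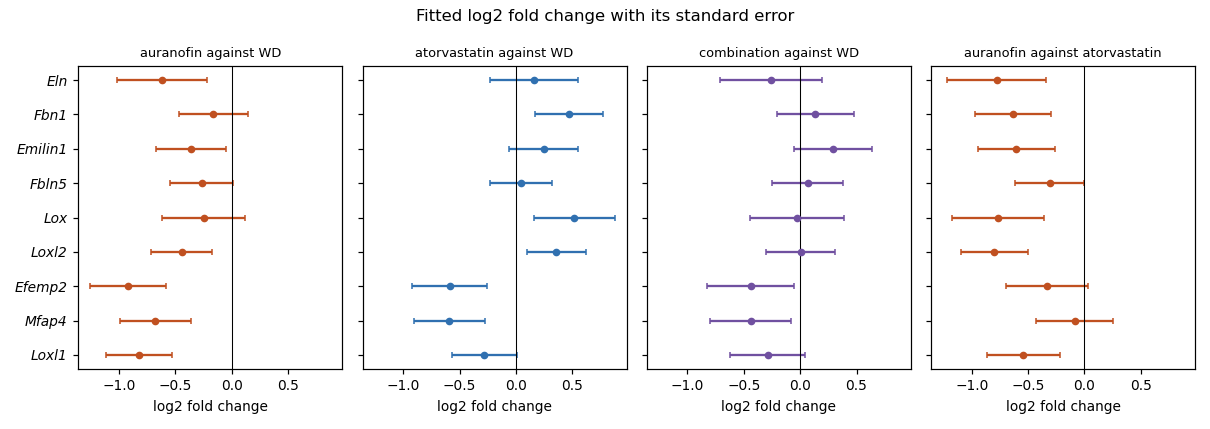
Fitted log2 fold change (horizontal axis) of the 9 measured members in 4 comparisons, with bars of 1 standard error; negative values are lower in the group named first. With auranofin all 9 points lie below 0 in both of its panels, and with atorvastatin Efemp2, Mfap4 and Loxl1 lie below 0 while the other 6 lie above.

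The layout also allowed a test of each drug over all 13 libraries, 5 with and 8 without it, in a model that added the 2 effects. For auranofin given or not, Eln had a log2 fold change of -0.54 (SE 0.30), Loxl1 -0.49 (SE 0.25), Efemp2 -0.48 (SE 0.29), Loxl2 -0.41 (SE 0.20), Lox -0.36 (SE 0.28), Mfap4 -0.34 (SE 0.26), Fbn1 -0.23 (SE 0.23), Emilin1 -0.20 (SE 0.24) and Fbln5 -0.15 (SE 0.21). All 9 were fitted lower, where 55.4% of genes were, and none passed (edgeR adjusted p 0.998 for each) or had an unadjusted p under 0.05. For atorvastatin given or not, 7 of 9 were fitted higher, with a median of 0.24, where 50.4% of genes were. None passed and 0 had an unadjusted p under 0.05 in edgeR, where 7.08% of genes did. Emilin1 was at 0.41 (SE 0.23), Fbn1 at 0.40 (SE 0.23), Lox at 0.40 (SE 0.27), Loxl2 at 0.39 (SE 0.20), Eln at 0.24 (SE 0.29), Fbln5 at 0.16 (SE 0.21) and Loxl1 at 0.05 (SE 0.24), with Efemp2 at -0.15 (SE 0.29) and Mfap4 at -0.26 (SE 0.26).

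A test of whether the auranofin effect differed with atorvastatin present gave no call, with a smallest edgeR adjusted p of 0.791. It was positive for 7 of 9 members, where 52.3% of genes were. The interaction was 1.06 (SE 0.52) for Efemp2, 0.83 (SE 0.49) for Mfap4 and 0.81 (SE 0.46) for Loxl1, and between -0.30 for Lox and 0.41 for Emilin1 for the other 6 members. Without combination 1 it was 0.72 for Efemp2, 0.27 for Mfap4, 0.37 for Loxl1 and 0.062 for Emilin1. The combination was fitted higher than auranofin alone for 9 of 9 members, with a median of 0.36, where 51.5% of genes were, and higher than atorvastatin alone for 4 of 9, with a median of -0.01, where 52.4% of genes were. Both combination libraries were below all 3 atorvastatin libraries for Eln, a pattern of 10.9% of genes. In a joint test of any difference among the 4 groups, 0 of 9 members passed and 0 had an unadjusted p under 0.05 in edgeR, where 3.04% of genes did.

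The members did not vary as 1 block. Over the 13 libraries the log2 CPM of Efemp2, Mfap4 and Loxl1 went together, with Pearson r of 0.90 to 0.91 for the 3 pairs. For Efemp2 and Loxl1 r was 0.91 and Spearman rho 0.97, each with a permutation p of 1e-05, the smallest the permutations could give, and an adjusted p of 0.00036 over 36 pairs. Without WD 2 and auranofin 2, the libraries farthest from the Efemp2 median, r was 0.92, and r of the deviations from the group means was 0.89. Among the other 6 members r ran from 0.39 to 0.85 and 10 of 15 pairs passed, among them Fbn1 with Loxl2 (r 0.85, rho 0.74; permutation adjusted p 0.0031 and 0.022) and Fbln5 with Emilin1 (r 0.84, rho 0.88; permutation adjusted p 0.00162 and 0.00243).

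Between the 2 sets none of 18 pairs passed, and r ran from -0.45 to 0.54. The ranges overlapped: Fbln5 had r of 0.54 with Loxl1 of the other set and 0.39 with Lox of its own. Lox and Loxl1, 2 enzymes of 1 family, had r of -0.22 and rho of -0.39 over the 13 libraries (permutation adjusted p 0.605 and 0.298). Without the 2 libraries farthest from the Lox median r was 0.03. Using deviations from the group means, 3 of 3, 7 of 15 and 0 of 18 pairs passed within the 3, within the 6 and between the sets. Without the 2 farthest libraries of each pair, 3 of 3, 5 of 15 and 0 of 18 did. The sets were seen in the data before these counts were made, so the counts describe them and do not test them. How often pairs of other genes reach such r in these libraries was not computed.

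**Figure D3:**
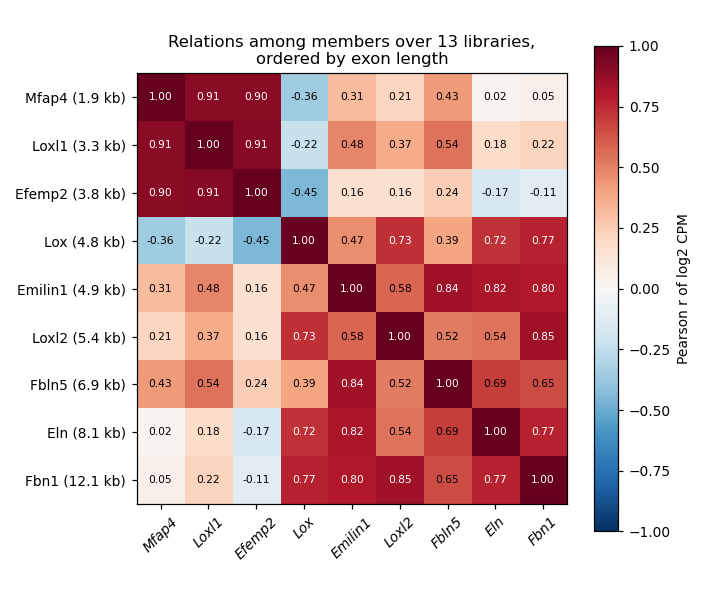
Pearson r of log2 CPM between each pair of the 9 measured members over 13 libraries, with genes ordered by exon length from Mfap4 (1.9 kb) to Fbn1 (12.1 kb) and colour giving r from -1 to 1. The 3 shortest genes form a block with r of 0.90 to 0.91, and r between them and the other 6 runs from -0.45 to 0.54.

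The set of 3 had the shortest exon lengths of the list. This length covers every annotated exon of a gene and is not the length of 1 transcript. By the summed length of their exons Mfap4 had 1922 bases, Loxl1 3297 and Efemp2 3788, against 4778 for Lox, 4937 for Emilin1, 5405 for Loxl2, 6911 for Fbln5, 8098 for Eln and 12128 for Fbn1. Whole libraries also differed by gene length, and the part of this in the members' values was not tested. A length trend was taken for each library as Spearman's rho, over 17732 genes, between exon length and the gene's deviation from its mean log2 CPM. It is a correlation across genes, which are not independent replicates, and it is negative where short genes are high. It was -0.48 in WD 2 and -0.34 in WD 5, then -0.23 in auranofin 2, against 0.25, 0.18 and -0.06 in WD 3, WD 4 and WD 1.

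With atorvastatin the length trend was 0.48, 0.41 and 0.12, with auranofin 0.20, -0.23 and 0.25, and with the combination -0.09 and 0.25. In WD 2 the genes of up to 2126 bases stood 1.33 higher on the log2 scale, relative to their mean over libraries, than those of 6134 bases or more. In atorvastatin 1 the same difference was -0.82. The mean log2 CPM of the 3 short members minus that of the other 6 was 1.07 in WD 2 and 0.79 in WD 5, and between -0.91 (atorvastatin 2) and -0.07 (combination 1) in the other 11 libraries. Auranofin 2, whose length trend was also negative, did not show the high balance and stood at -0.59. What moved the length trend was not tested.

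**Figure D4:**
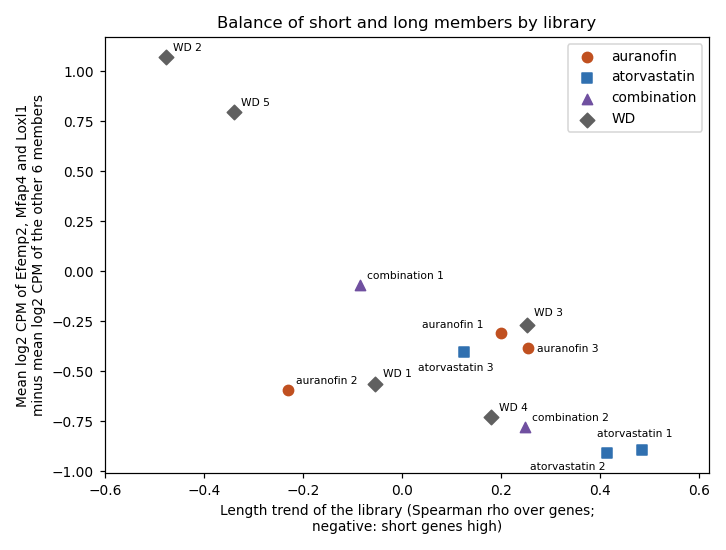
Mean log2 CPM of Efemp2, Mfap4 and Loxl1 minus that of the other 6 members (vertical axis) against the length trend of each library (horizontal axis, Spearman rho over genes), with 1 point per library marked by group. WD 2 and WD 5 stand apart at the upper left, at 1.07 and 0.79.

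Single members followed this trend to different degrees over the 13 libraries. The share of all genes that would pass with the trend was not computed. For Fbn1, the longest, r with the length trend was 0.82 and rho 0.80 (permutation adjusted p 0.00558 and 0.0164 over 9 members). Without the 2 libraries farthest from the median of the trend r was 0.75 (permutation adjusted p 0.0591). For Lox r was 0.74 and rho 0.66 (permutation adjusted p 0.0205 and 0.0707), and without the 2 farthest libraries r was 0.51. The other 7 members did not pass. Among them r was -0.55 for Efemp2, -0.43 for Mfap4 and -0.27 for Loxl1 (permutation adjusted p 0.0927, 0.183 and 0.426). Without WD 2 and WD 5, the 2 farthest libraries, these r were 0.11, 0.08 and 0.27. All 9 members then had a positive r, and 0 passed. The negative r of these short members therefore depended on WD 2 and WD 5.

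The mitochondrial share of counts went against several members. The share of all genes that would pass was not computed for it, the TMM factor or the scores below. These relations are therefore not shown to be particular to the members. For Fbn1 r was -0.89 and rho -0.83 (permutation adjusted p 0.00081 and 0.012 over 54 relations), and r was -0.86 without WD 1 and auranofin 2. For Emilin1 r was -0.86 and rho -0.80 (permutation adjusted p 0.00144 and 0.017), for Fbln5 r was -0.76 and rho -0.90 (permutation adjusted p 0.0174 and 0.00378), and for Eln r was -0.73 and rho -0.74 (permutation adjusted p 0.0251 and 0.0369). Without WD 1 and auranofin 2 r was -0.79 for Emilin1, -0.79 for Fbln5 and -0.71 for Eln, and Eln no longer passed (permutation adjusted p 0.0671). For Loxl2 r was -0.83 and rho -0.67 (permutation adjusted p 0.0109 and 0.0735). Without those libraries r was -0.64 for Loxl2 and did not pass (permutation adjusted p 0.157). Of deviations from the group means r was -0.93 for Fbn1, -0.81 for Emilin1, -0.70 for Fbln5 and -0.69 for Eln, of which Fbn1 passed (permutation adjusted p 0.00486). The TMM factor passed by r with Fbn1 (r 0.92, rho 0.85; permutation adjusted p 0.00054 and 0.0113) and with Eln, Emilin1, Lox and Loxl2. Without WD 2 and auranofin 2 r was 0.79 for Fbn1, 0.78 for Lox and 0.83 for Loxl2. It was 0.54 for Eln and 0.42 for Emilin1 (permutation adjusted p 0.309 and 0.445), so these 2 relations depended in part on those libraries. With the mitochondrial share Efemp2 (r -0.16, rho -0.08; permutation adjusted p 0.692 and 0.942) did not pass. Lox, Loxl1 and Mfap4 did not pass with it either (permutation adjusted p 0.0661, 0.266 and 0.398 for r).

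Macrophage and adipocyte scores had no relation with a member that passed. For Eln r was -0.17 and rho -0.09 with the macrophage score and -0.15 and -0.21 with the adipocyte score (permutation adjusted p 0.692 and 0.709 for r). With the contractile smooth muscle score, Emilin1 (r 0.73, rho 0.61; permutation adjusted p 0.0209 and 0.125) and Fbn1 (r 0.69, rho 0.35; permutation adjusted p 0.0437 and 0.46) passed by r and not by rho. Without WD 2 and auranofin 2 these r were 0.27 and 0.01, so they depended largely on those libraries. Fbn1 also passed by r with the adventitial fibroblast score (r -0.80, rho -0.59; permutation adjusted p 0.0109 and 0.141), and r was -0.58 without atorvastatin 1 and auranofin 2.

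The genes whose log2 CPM went most closely with 3 of the members were named among 9450 candidates over 13 libraries, as a description. With Eln these were Clip2 (r 0.90), Ccdc80, a secreted matrix protein (0.90), Rrbp1, a ribosome receptor of the endoplasmic reticulum (0.90), App, the amyloid precursor protein (0.90), and Npas2, a clock transcription factor (0.89). With Lox they were Plekhm3 (0.93), Frmd4a (0.93), Map4k4, a kinase (0.93), Smad3, which carries TGF-beta signals to the nucleus (0.93), and Adam19, a metalloprotease (0.92). With Loxl1 they were Tcea3 (0.98), Tgfb1i1, a LIM protein of focal adhesions (0.98), Tctn2 (0.97) and Pofut2, which adds fucose to thrombospondin repeats (0.97). No gene was named for more than 1 of the 3. The genes named with Loxl1, picked as the highest, went with it more closely than Efemp2 and Mfap4 did (r 0.91 each).

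The other genes of the pathway gave no call either. Of 17 further assembly genes, such as latent TGF-beta binding proteins, microfibril glycoproteins and ADAMTS-like proteins, 4 were fitted higher and 13 lower with auranofin given, with a median log2 fold change of -0.21 against -0.03 over all genes. Adamts17, a protease linked to fibrillin, was at -0.55 (SE 0.33), on only 5 to 17 counts a library. Emilin2 was at 0.42 (SE 0.29) and Efemp1, fibulin-3, at 0.35 (SE 0.24). Of 10 further genes of crosslinking and copper supply 3 were fitted higher and 7 lower, with a median of -0.09. Slc2a10, a glucose transporter mutated in arterial tortuosity, was at -0.26 (SE 0.20), Pcolce, an enhancer of procollagen processing, at -0.20 (SE 0.18) and Tgm2, transglutaminase 2, at -0.14 (SE 0.14).

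Of the enzymes that can degrade elastin, 6 of 9 listed were tested and 5 of these were fitted higher with auranofin given, with a median of 0.32. Mmp9 was at 0.43 (SE 0.26), Ctsl, cathepsin L, at 0.30 (SE 0.39) and Mmp12, macrophage elastase, at 0.44 (SE 0.70). Mmp12 ran from 11.5 to 446 CPM over the 13 libraries, 38.9 times from lowest to highest, where the measured elastic fibre genes varied by at most 4.35 times. Elane, neutrophil elastase, had 7 counts in all. In each of the 3 lists 0 genes passed in the 10 comparisons by edgeR, and with auranofin given 0 had an unadjusted p under 0.05, where 2.69% of all genes did.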

How the data were processed

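The authors deposited raw counts per gene for 13 libraries. Per the labels, poly-A libraries were not stranded and were sequenced on a DNBseq platform, and per the submitters' processing notes the tools were STAR 2.6.1d and featureCounts from Subread 1.6.3, with the GRCm39 build. Counts were used as deposited. Without strand, reads of overlapping antisense genes cannot be told apart.

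Genes were filtered with filterByExpr of edgeR 4.0.16 over the 4 groups, which left 18055 of 56953 genes with 99.9% of the counts. Libraries were scaled with TMM and fitted with 1 mean per group in R 4.3.3, and SEs are the log2 fold change divided by the square root of F. DESeq2 1.42.0 and limma 3.58.1 were alternatives. Log2 CPM for relations used a prior count of 2, and each relation 100000 permutations, two-sided; Fbn2 was not tested, so 36 pairs remained. Exon lengths are those of GENCODE M21 (GRCm38), matched by identifier for 98.2% of genes tested, and sequences are RefSeq's on GRCm38.p6. Promoter entries on chromosome 18 (Lox and Fbn2) were not used, and Eln, Mfap4, Loxl1 and Loxl2 had none. Among the rest a promoter was printed where its window lay outside the gene model, which held for 2 members. Figures used matplotlib 3.10.9.

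The members, lists and tests were chosen with earlier results of these data known. Named genes were the 10 members, the 3 genes of smallest p per list for auranofin given or not, and the 5 genes of highest r with Eln, Lox and Loxl1, of which 1 is not reported here. The fit was tested on simulated data. The alternatives with the length trend or without the 3 libraries of lowest TMM factor, and the relations with the length trend, were added after seeing the data. Ctsv was not analysed here.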

Additional observations from a re-analysis of the deposited data

How the results depend on the processing

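In the 7 comparisons for which members were refitted under the alternatives, none passed an adjusted p of 0.05 (the combination against each single drug and the joint test were recounted over all genes only): the smallest adjusted p was 0.219 when a library was left out and 0.246 under the other alternatives, the 9 named genes of the other lists included. Of 936 log2 fold changes with a library left out 908 kept their sign, and of 827 under other alternatives 787 did.

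Counts of genes called over the whole table were 0 in edgeR as reported. Without a low-count filter they were 13 (auranofin against WD), 2 (atorvastatin against WD), 9 (combination against WD), 3 (combination against atorvastatin) and 65 (any difference). DESeq2 called 2 (auranofin against WD), 4 (combination against WD), 5 (auranofin against atorvastatin), 3 (combination against auranofin), 5 (combination against atorvastatin), 9 (interaction) and 20 (any difference). With a library left out the counts ran from 0 to 10 (combination against WD), 0 to 8 (combination against auranofin and against atorvastatin), 0 to 2 (interaction) and 0 to 13 (any difference), each upper value without combination 1, which leaves 1 combination library that is assumed to vary like the other groups. Of the relations among members 13 passed, and 8 did without the 2 farthest libraries; of those with other measures 13 passed, 7 without the 2 farthest libraries and 2 on deviations from the group means. The causes were not tested.

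Signs turned as follows. With the length trend as covariate, atorvastatin against WD gave -0.26 for Eln, -0.11 for Fbn1, -0.11 for Fbln5, -0.058 for Emilin1, -0.044 for Lox and -0.041 for Loxl2; the combination against WD gave -0.043 for Fbn1 and -0.15 for Loxl2; the interaction was 0.48 for Fbn1 and 0.21 for Lox, and atorvastatin given or not 0.17 for Efemp2. Without auranofin 2, WD 2 and WD 5, atorvastatin against WD gave -0.18 for Eln and -0.0499 for Fbln5; the combination against WD -0.095 for Fbn1, -0.027 for Fbln5, 0.075 for Efemp2 and -0.13 for Loxl2; auranofin against atorvastatin 0.16 for Mfap4; the interaction 0.00348 for Lox and -0.023 for Loxl2; and atorvastatin given or not 0.067 for Efemp2. In limma, atorvastatin against WD gave -0.18 for Eln and -0.10 for Fbln5, the combination against WD -0.063 for Fbn1, -0.13 for Fbln5 and -0.14 for Loxl2, auranofin against atorvastatin 0.031 for Mfap4, and atorvastatin given or not -0.0499 for Fbln5 and -0.024 for Loxl1. With the smooth muscle score as covariate, Fbn1 was at 0.038 for auranofin against WD, Fbln5 at -0.00879 for atorvastatin against WD, Mfap4 at 0.19 for auranofin against atorvastatin, Emilin1 at 0.014 for auranofin given or not and Loxl1 at -0.11 for atorvastatin given or not. With the adipocyte score Mfap4 was at 0.019 for auranofin against atorvastatin. Loxl2 in the combination against WD was -0.00200 with DESeq2 size factors, -0.00182 with the stricter filter, -0.00208 in DESeq2 and -0.00174 without mitochondrial genes. The length trend and the removal of 3 libraries were chosen after seeing the data.

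With a library left out, ranges that crossed 0 were, against WD, -0.48 to 0.10 (Fbn1, auranofin), -0.053 to 0.37 (Eln, atorvastatin), -0.098 to 0.15 (Fbln5, atorvastatin), and with the combination -0.35 to 0.39 (Fbln5), -0.074 to 0.58 (Emilin1), -0.43 to 0.28 (Lox), -0.75 to 0.0604 (Loxl1) and -0.13 to 0.072 (Loxl2). They were -0.39 to 0.16 for Mfap4 (auranofin against atorvastatin), -0.18 to 0.14 for Loxl1 (atorvastatin given or not) and, for the interaction, -0.012 to 0.44 (Eln), -0.44 to 0.14 (Fbn1), -0.10 to 0.61 (Fbln5), -0.69 to 0.0304 (Lox) and -0.16 to 0.38 (Loxl2).

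No pairing by the replicate numbers of the titles was seen, which does not exclude one. Deviations of same-numbered libraries correlated at -0.31 to 0.43 over 15 pairs (median 0.06). Those of other-numbered libraries correlated at -0.49 to 0.51 over 46 pairs (median -0.04). With the replicate block 0 genes were called in each of the 10 comparisons, and Loxl2 in the combination against WD was -0.042. Fbn2, Elane and Adamts17 are limited by depth, at 15, 7 and 110 counts in all.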
